A study of Mus musculus with 9 samples.

Results

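The proteins that hold the triad of skeletal muscle and the dyad of the heart together, and that tie the voltage-sensing calcium channel to the release channel, were followed at the level of their transcripts. They were taken by gene name: Jph1, Jph2, Trdn, Asph, Hrc, Jsrp1, Cacnb1, Cacnb2, Cacng1 and Stac3, 10 of the 24537 gene names for which heart and quadriceps of sham mice can be compared. They account for 28 of 35745 RefSeq transcripts. In striated muscle, an action potential runs along invaginations of the surface membrane, the transverse tubules, which lie against the junctional face of the sarcoplasmic reticulum. In skeletal muscle the L-type calcium channel of the tubule opens the ryanodine receptor of the reticulum through direct mechanical coupling, whereas in the heart calcium that enters through the channel opens the receptor. Junctophilins hold both membranes at a fixed distance, luminal and junctional proteins tie the calcium store to the receptor, and auxiliary subunits and adapters place the channel in the tubule.

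The libraries came from C57Bl6 mice (C57Bl/6JCrl males in the methods of the study) that had sham surgery at an age of 8 weeks and were examined 12 weeks later, 3 libraries from the heart and 3 from the quadriceps muscle. A further 3 libraries came from quadriceps of mice with transverse aortic constriction (TAC), an operation that narrows the aorta and overloads the left ventricle. The TAC mice had the same age at surgery and the same interval after it as the sham mice. The labels of the TAC libraries name cachexia, and the study reports heart failure and muscle wasting after this operation. All 3 groups are wild-type mice, and the sham groups had the operation without the constriction. The labels do not say which part of the heart was taken, nor whether a heart and a quadriceps library of the same number came from 1 mouse. The study speaks of biological replicates, but the labels tie no library to a mouse.

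Total counts over transcripts were 33102826 to 38382751 in heart and 23383452 to 32989108 in quadriceps. The tissue labels were checked on marker genes. All 6 markers of skeletal fibres were higher in quadriceps, with a summed level of 36076 to 42911 RPKM (counts per length of transcript and per size of library) against 1052 to 1222 in heart, and all 8 cardiomyocyte markers were lower, at 54.2 to 133 against 21348 to 22494 RPKM. All 4 endothelial markers, 3 of 4 fibroblast, 2 of 4 macrophage and all 3 red blood cell markers were lower in quadriceps, the last with sums of 47.8 to 67.8 RPKM against 291 to 353 in heart. Of 4 Schwann cell markers 2 were higher in quadriceps. All 4 adipocyte markers were higher there, with sums of 8.07 to 75.1 RPKM against 0.384 to 1.61 in heart. Of 4 smooth muscle markers 1 was higher and 1 lower in quadriceps, and of 4 slow fibre markers 2 were higher and 2 lower. By the same test, described below, 32.1% of all gene names were called higher in quadriceps and 33.9% lower. Myl7, the atrial myosin light chain, had 2075, 164 and 3 counts in heart libraries 1, 2 and 3, so the heart libraries were unequal in an atrial gene, and its part in the results was not tested. Myl4, another of the 8 cardiomyocyte markers, was also uneven there, with 6811, 756 and 91 counts. It was called lower in quadriceps although its scaled counts overlapped between the tissues. In bulk tissue, fewer cells of a type and less RNA per cell cannot be told apart.

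With edgeR's quasi-likelihood test on counts scaled by TMM (trimmed mean of M values), the transcripts of 8 of the 10 genes were higher in quadriceps, that of Cacnb2 was lower and that of Hrc did not pass the test at an adjusted p of 0.05. Each gene is represented here by its transcript with the highest mean count. Of all 14906 gene names tested, 32.1% were called higher and 33.9% lower. The study took genes as higher in quadriceps at a log2 fold change over 2 and p under 0.05. By that threshold, with the unadjusted p, 5 of the 10 were higher (Jph1, Jsrp1, Cacnb1, Cacng1 and Stac3), and by its mirror for lower genes, added here, 1 was lower (Cacnb2), against 7.14% and 9.04% of all gene names. In 9 of the 10 the TMM-scaled counts of the groups did not overlap, which held for 71.7% of all gene names. Over the 28 transcripts, 16 were higher, 8 were lower and 4 were not called, against 32.2% higher and 34.4% lower of all 24280 transcripts tested. The median log2 fold change was 2.69 over the 10 genes and -0.056 over all transcripts.

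The scaling decides the calls of 4 genes. The 10 transcripts with the highest counts took 11.5 to 12.0% of the counts in heart and 15.6 to 18.5% in quadriceps. Dividing by library totals in place of TMM moved the median of all transcripts to -0.80. The part of those 10 transcripts in this shift was not tested. Under library totals 5 of the 10 genes were higher and 2 lower: the same 5 with log2 fold changes over 2 stayed higher, Jph2, Trdn and Asph were no longer called, and Hrc joined Cacnb2 as lower. On that scale 13.6% of all gene names were called higher and 62.0% lower. RPKM values are on the library-total scale, whereas the log2 fold changes given here are on the TMM scale unless stated.

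**Figure D1:**
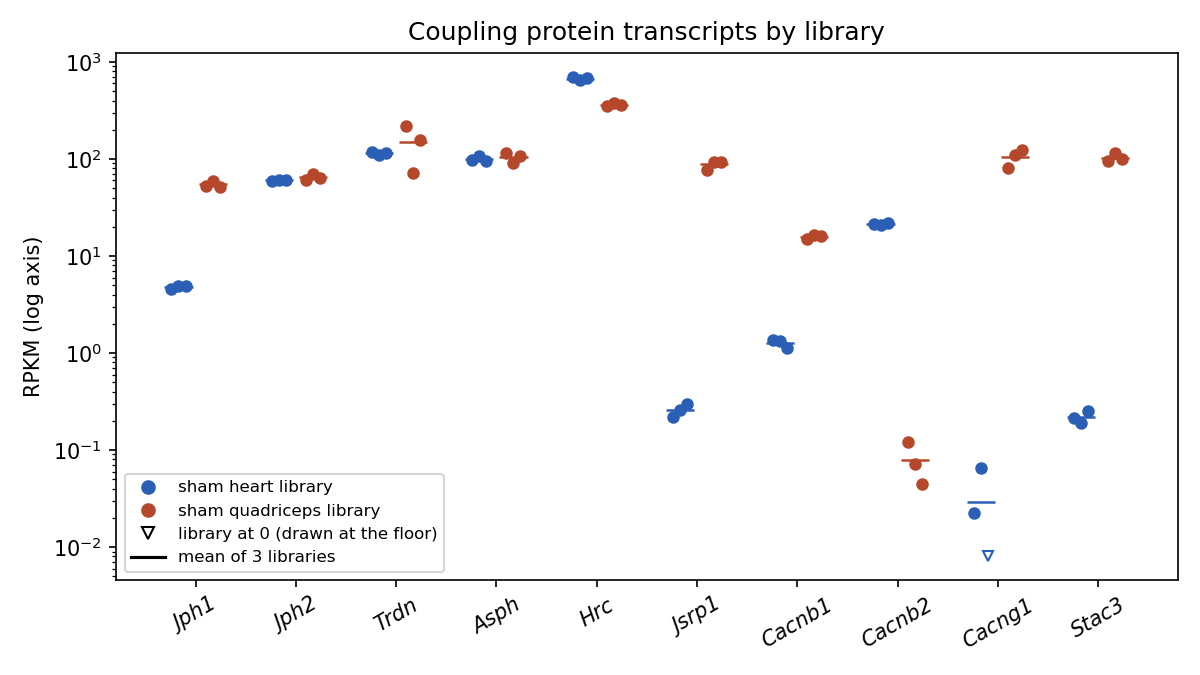
RPKM of the transcript with the highest mean count of each gene (log axis), with 1 point per library, the mean of 3 libraries as a line, heart in blue and quadriceps in red. Jph2, Trdn, Asph and Hrc are at 58.6 RPKM or above in each library of both tissues, while Jsrp1, Cacng1 and Stac3 are under 0.4 RPKM in each heart library, and Cacng1 in heart library 3, at 0, is drawn as an open triangle at the floor.

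**Figure D2:**
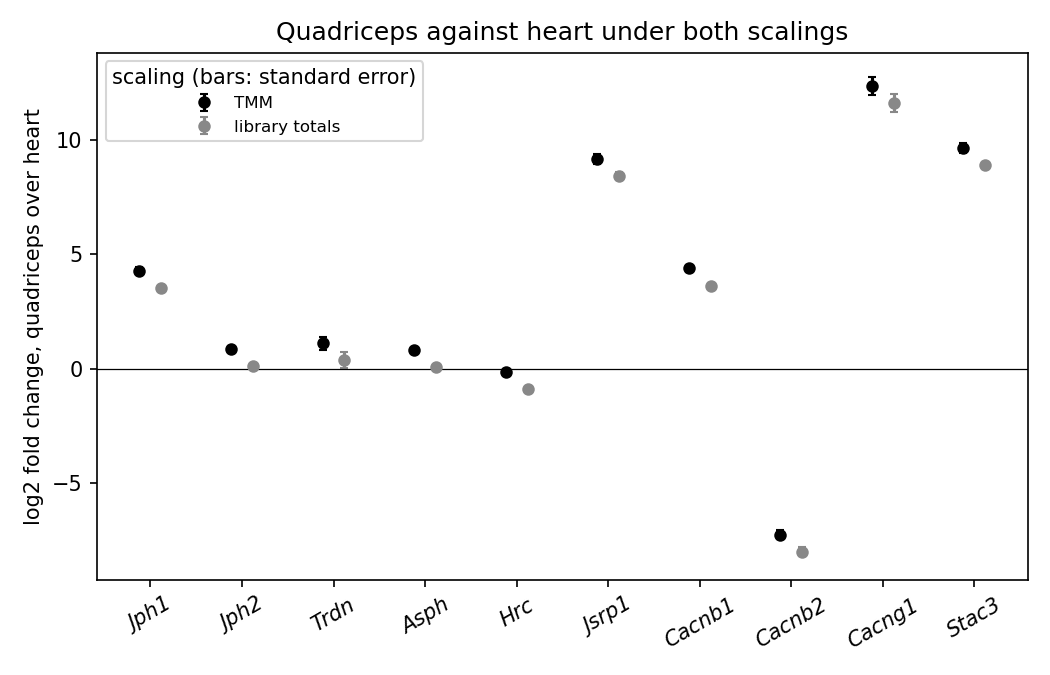
Log2 fold change of quadriceps over heart for the same 10 transcripts under TMM (black) and library totals (grey), with bars for the standard error. Jph2, Trdn and Asph lie above 0 under TMM and near 0 under library totals, Hrc lies near 0 under TMM and below it under library totals, and the other 6 keep their side.

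Among the junctophilins, which bind the tubule membrane and are anchored in the reticulum, Jph1 was the form with a large difference between the tissues. Jph1 (GRCm38, chr1:16964560-17097889, minus strand) had 53.1, 59.6 and 51.6 RPKM in the 3 quadriceps libraries and 4.51, 4.90 and 4.88 in the 3 heart libraries. Every quadriceps library was far above every heart library. The means were 54.8 ± 4.26 and 4.77 ± 0.218 RPKM (SD, n = 3 each), and the log2 fold change was 4.28 (SE 0.14, adjusted p = 1.18e-08, edgeR's quasi-likelihood test), a 19.4-fold difference.

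Jph2, the junctophilin of the cardiac dyad that skeletal muscle also expresses (chr2:163336242-163397993, minus strand), was nearly level in RPKM. Its values were 60.0, 70.6 and 63.8 RPKM in quadriceps and 58.6, 60.3 and 61.4 in heart, so quadriceps library 1 fell within the range of the heart libraries. On the TMM scale the groups did not overlap, and the log2 fold change was 0.87 (SE 0.13, adjusted p = 0.000254, edgeR's quasi-likelihood test), whereas library totals gave 0.11 (adjusted p = 0.342). Its other listed transcript, which starts further upstream, had a log2 fold change of 0.86.

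The balance of the paralogs does not depend on the scaling, since both are read in the same library. The ratio of Jph1 to Jph2 per transcript length was 0.0771, 0.0813 and 0.0796 in heart and 0.884, 0.844 and 0.809 in quadriceps. Heart thus held mostly Jph2 transcripts, and quadriceps held both at similar levels. The difference in the log2 ratio was 3.41, or 10.7-fold, with an exact two-sided permutation p of 0.1, the smallest that 3 against 3 libraries allow. The more neuronal junctophilins were scarce, as Jph3 did not pass the filter on low counts and Jph4 stayed under 0.06 RPKM in each library.

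**Figure D3:**
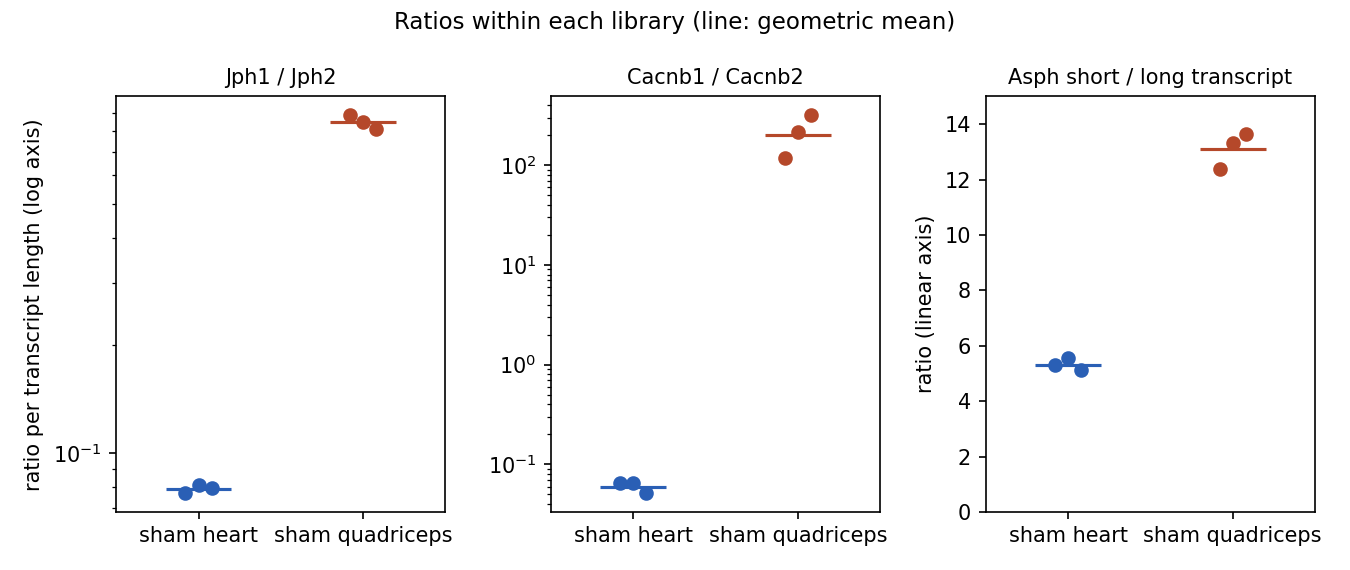
Ratios per transcript length within each library for Jph1 to Jph2 and Cacnb1 to Cacnb2 (log axes) and for the shortest to the longest Asph transcript (linear axis from 0), with 1 point per library and the geometric mean as a line. In each panel the 3 quadriceps libraries (red) lie above the 3 heart libraries (blue), with ratios of 0.809 to 0.884 against 0.0771 to 0.0813 for the junctophilins.

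The transcripts for proteins of the junctional reticulum and its lumen shared high levels in both tissues, with the exception of Jsrp1. Hrc, the histidine-rich calcium-binding protein of the lumen (chr7:45335290-45338974, plus strand), had the highest level per length of the 10 genes in both tissues. It reached 352, 375 and 357 RPKM in quadriceps and 699.6, 644 and 677 in heart. All quadriceps libraries were lower on this scale, with means of 361 ± 12.1 and 674 ± 27.9 RPKM (SD, n = 3 each). As CPM, counts relative to a TMM-scaled library of fixed size, the values were 1023, 1252 and 1143 in quadriceps and 1318, 1190.5 and 1264 in heart, where quadriceps library 2 lay within the heart range. The log2 fold change was -0.14 (SE 0.13, adjusted p = 0.348, edgeR's quasi-likelihood test), and with library totals it was -0.90 (adjusted p = 9.0e-05).

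Trdn encodes triadin, which links the ryanodine receptor to the calcium-binding calsequestrin (chr10:33080554-33476709, plus strand). Its values were 216, 71.2 and 159 RPKM in quadriceps and 118, 110.4 and 114 in heart. The heart libraries lay close together, while quadriceps libraries 1 and 3 were above them and library 2 was below them. TMM-scaled CPM values were 1161, 439.6 and 937 in quadriceps and 411, 377 and 394 in heart, so that library 2 was just above the heart libraries on this scale. Within quadriceps the SD of the log2 values was 0.74, and 6.61% of all tested transcripts had a larger one. The log2 fold change was 1.10 (SE 0.29, adjusted p = 0.00796, edgeR's quasi-likelihood test). It was 1.42 without quadriceps library 2 and 0.82 without library 1, and it was called in each of the 6 fits that left out 1 library, but not with library totals (0.38, adjusted p = 0.327).

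Jsrp1 encodes JP-45, a protein of the junctional reticulum that binds the skeletal calcium channel and calsequestrin (chr10:80808496-80813498, minus strand). It had 77.7, 93.2 and 93.8 RPKM in quadriceps and 0.219, 0.259 and 0.300 in heart. The heart values rest on 9, 11 and 11 counts, against 2810, 3404 and 2429 counts in quadriceps. The log2 fold change was 9.16 (SE 0.21, adjusted p = 2.35e-09, edgeR's quasi-likelihood test).

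Asph yields several proteins from 1 gene (chr4:9448069-9669344, minus strand). The long form is aspartyl beta-hydroxylase, an enzyme of the endoplasmic reticulum, and the short forms junctin and junctate lack the catalytic domain, of which junctin binds triadin, calsequestrin and the ryanodine receptor. The transcript with the highest count, of 1754 bases and 5 exons, had 114, 90.7 and 108 RPKM in quadriceps and 97.7, 108 and 95.2 in heart, with overlapping groups. On the TMM scale the groups were apart, with a log2 fold change of 0.80 (SE 0.11, adjusted p = 0.000116, edgeR's quasi-likelihood test), whereas library totals gave 0.05 (adjusted p = 0.681).

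The 11 listed Asph transcripts did not share a direction. The 3 transcripts of 5 exons, which code for 207 to 245 residues and end between 9620909 and 9629023, had TMM log2 fold changes of 0.67 to 0.92 and were all called higher. The 3 transcripts of 23 or 24 exons, which code for 658 to 741 residues and run furthest of the 11, to 9449079, had -0.50 to -0.46 and were all called lower. Between them, 5 transcripts of 12 to 14 exons that end at 9575267 had -0.38 to -0.18, of which 2 were called lower. Under library totals, where 62.6% of all transcripts were called lower and 13.3% higher, the 8 transcripts of 12 or more exons were all called lower, and the 3 of 5 exons were not called, with log2 fold changes of 0.17, 0.05 and -0.075, the last with its sign turned. Reads in shared exons count for several transcripts, so these values are not independent.

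Read within each library, the level per length of the shortest transcript was 5.29, 5.57 and 5.12 times that of the longest in heart and 12.4, 13.3 and 13.7 times in quadriceps. The groups were well apart. This ratio was 2.46-fold larger in quadriceps (difference in log2 1.30, exact two-sided permutation p = 0.1, the smallest possible). Since reads in shared exons count for several transcripts, it does not measure the proportions of the short and long forms. This pair of transcripts was chosen after the values were seen.

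**Figure D4:**
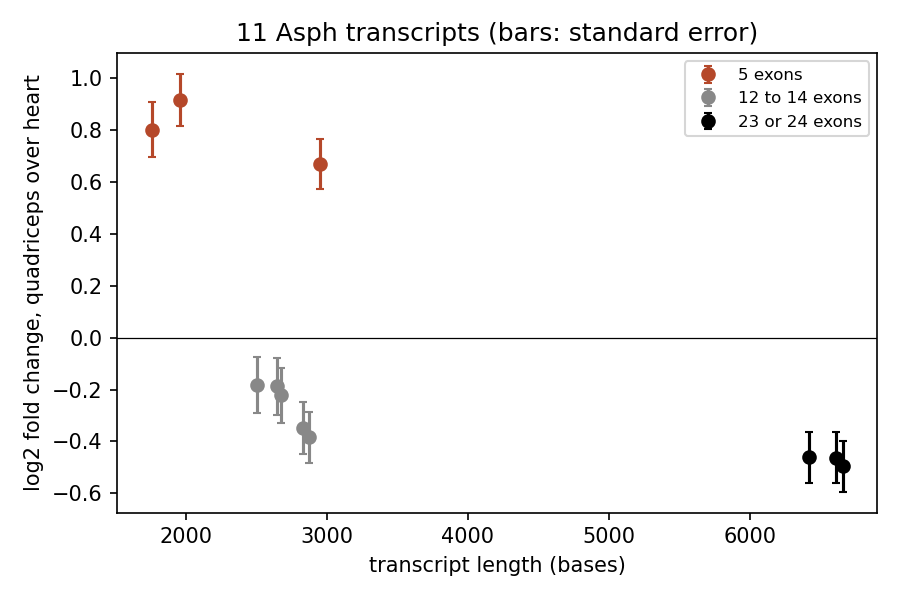
TMM log2 fold change of quadriceps over heart (bars for the standard error) against transcript length in bases for the 11 Asph transcripts, coloured by the number of exons. The 3 transcripts of 5 exons lie at 0.67 to 0.92, and the 8 with 12 or more exons lie at -0.50 to -0.18, and the shortest of these 8, at 2505 bases, is shorter than the 2946 bases of the longest 5-exon transcript.

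The ratios of the other 3 reticulum and tether genes to Hrc, which are again free of the scaling, were higher in quadriceps. Such a ratio cannot tell a higher gene from a lower Hrc. Hrc had the lowest log2 fold change of these genes under both scalings, so the direction of the ratios follows from its choice as reference. Jph2 relative to Hrc was 2.01-fold higher, Asph 1.93-fold and Trdn 2.20-fold (exact two-sided permutation p = 0.1 each), in a comparison added after the values were seen. For Trdn the 3 quadriceps ratios were 0.614, 0.190 and 0.444 and the heart ratios 0.169, 0.171 and 0.169, so that library 2 again lay close to the heart.

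The transcripts for the beta subunits of the L-type calcium channel were exchanged between the tissues. Beta subunits bind the pore-forming subunit inside the cell and carry it to the membrane, with the product of Cacnb1 in the skeletal and that of Cacnb2 in the cardiac channel. Cacnb1 (chr11:98001508-98023034, minus strand) had 14.9, 16.3 and 16.0 RPKM in quadriceps and 1.36, 1.34 and 1.12 in heart. The groups were far apart, with a log2 fold change of 4.38 (SE 0.14, adjusted p = 1.18e-08, edgeR's quasi-likelihood test). Its other 5 transcripts ranged from 4.38 to 4.61, the highest being the 1 with a downstream first exon. They share most exons, and 2 of them differed by at most 2 counts in each library.

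Cacnb2 (chr2:14603088-14987908, plus strand) was the only 1 of the 10 genes called lower under TMM. It had 0.121, 0.0718 and 0.0450 RPKM in quadriceps, from 15, 9 and 4 counts, and 21.2, 20.7 and 21.8 RPKM in heart, from 2980, 3015 and 2737 counts. The log2 fold change was -7.25 (SE 0.19, adjusted p = 4.03e-09, edgeR's quasi-likelihood test), and its other 2 transcripts had -7.21 and -7.16. In proportion to Cacnb2, Cacnb1 was at 0.0645, 0.0648 and 0.0516 in heart and at 119, 215 and 315 in quadriceps. The log2 ratios differed by 11.71 (exact two-sided permutation p = 0.1). Transcripts of the cardiac beta subunit were thus close to absent from quadriceps, while heart held a low level of the skeletal form.

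RefSeq promoter windows (GRCm38.p6) were at hand for 4 of the 10 genes, Cacnb1, Cacnb2, Jph2 and Hrc, and all 4 are shown. For Cacnb2, 1 start is shown, that of its transcript with the highest count, since the window of the other lies wholly in annotated exons. For Jph2 the upstream start is shown, that of its other listed transcript and not of the transcript with the highest count. The windows take the 250 bases before a start site, less any bases in annotated exons, and are written 5′ to 3′ on the strand of the gene, with matches to the E-box CANNTG in capitals. E-boxes are the letters that myogenic factors of the MyoD family bind, and MEF2 sites and CArG boxes are other muscle motifs. The lines are, in order, Cacnb1 upstream start (chr11:98022635-98022877, minus strand), Cacnb1 downstream start (chr11:98018373-98018622, minus strand), Cacnb2 (chr2:14823842-14824025, plus strand), Jph2 (chr2:163397994-163398243, minus strand) and Hrc (chr7:45335019-45335268, plus strand).
Cacnb1 upstream start: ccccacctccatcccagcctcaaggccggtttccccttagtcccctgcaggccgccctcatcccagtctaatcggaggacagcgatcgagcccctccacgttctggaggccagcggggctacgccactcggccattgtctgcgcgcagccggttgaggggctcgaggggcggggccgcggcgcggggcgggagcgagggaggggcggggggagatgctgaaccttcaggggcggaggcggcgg
Cacnb1 downstream start: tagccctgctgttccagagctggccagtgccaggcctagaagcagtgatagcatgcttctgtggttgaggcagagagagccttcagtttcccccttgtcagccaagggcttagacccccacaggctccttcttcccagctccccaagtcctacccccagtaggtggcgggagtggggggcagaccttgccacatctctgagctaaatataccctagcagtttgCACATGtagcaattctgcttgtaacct
Cacnb2: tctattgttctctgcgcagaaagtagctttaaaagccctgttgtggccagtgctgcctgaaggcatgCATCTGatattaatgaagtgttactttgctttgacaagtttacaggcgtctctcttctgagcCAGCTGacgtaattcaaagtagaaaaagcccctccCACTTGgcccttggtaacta
Jph2: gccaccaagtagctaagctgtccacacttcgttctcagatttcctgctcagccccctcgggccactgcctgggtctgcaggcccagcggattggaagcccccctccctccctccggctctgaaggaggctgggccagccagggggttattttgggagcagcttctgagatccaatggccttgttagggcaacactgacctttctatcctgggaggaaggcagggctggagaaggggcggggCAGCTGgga
Hrc: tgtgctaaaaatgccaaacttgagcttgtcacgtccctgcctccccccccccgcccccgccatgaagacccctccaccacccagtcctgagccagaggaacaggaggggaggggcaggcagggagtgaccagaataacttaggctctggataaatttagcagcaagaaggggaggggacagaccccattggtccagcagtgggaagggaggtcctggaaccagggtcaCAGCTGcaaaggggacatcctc

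The form CAGCTG begins 121 bases before the start shown for Cacnb2 (and 236 before the other). It begins 9 bases before that shown for Jph2 (and 29 before the other) and 22 before that of Hrc. Of all 32851 promoter windows of the same 250 bases, 13% hold it on either strand. Cacnb2 also has CATCTG at 183 and CACTTG at 86 bases, and CATCTG again at 7 bases, within an exon that is not shown. The downstream Cacnb1 start has CACATG at 27 bases, and the upstream one, which lies before the Cacnb1 transcript with the highest count, has no CANNTG, which 66.2% of windows hold. Neither a MEF2 site (2.92% of windows), a CArG box (1.47%), CATTCC (12.6%) nor AGATAA (9.99%) was found in these 5 windows on either strand. These are matches of letters only.

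Cacng1, the gamma subunit that is a part of the skeletal channel complex (chr11:107703218-107716522, minus strand), was almost restricted to quadriceps. It had 81.6, 111 and 123 RPKM in quadriceps, from 3189, 4388 and 3441 counts, and 1, 3 and 0 counts in the heart libraries. Summed over the 3 libraries and scaled to their TMM sizes, the level in quadriceps was 5639 times that in heart, with an exact 95% interval of 2202 to 20700 that covers counting error only. The fitted log2 fold change of 12.33 (SE 0.40, adjusted p = 1.28e-08, edgeR's quasi-likelihood test) depends on the prior count. It was 12.16, 13.43 and 11.85 without heart libraries 1, 2 and 3.

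Stac3, an adapter that binds the skeletal channel and is needed for its coupling to the ryanodine receptor (chr10:127501686-127508823, plus strand), had a similar pattern. It reached 95.0, 114 and 101 RPKM in quadriceps and 0.213, 0.191 and 0.255 in heart, where it had 14, 13 and 15 counts. The log2 fold change was 9.63 (SE 0.21, adjusted p = 1.92e-09, edgeR's quasi-likelihood test). Its relatives Stac and Stac2 stayed under 0.2 RPKM in each library of both tissues and did not pass the test.

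The order of levels per length differed between the tissues. In quadriceps Hrc was first, Trdn, Cacng1, Asph and Stac3 followed with ranges that overlapped from each to the next, and then came Jsrp1, Jph2, Jph1, Cacnb1 and Cacnb2, each apart from its neighbour above. In heart the order was Hrc, Trdn, Asph, Jph2, Cacnb2, Jph1, Cacnb1, Jsrp1, Stac3 and Cacng1, and of these neighbours the ranges of Jsrp1 and Stac3 alone overlapped. Heart libraries varied little for the better-counted genes, with an SD of the log2 values of 0.074 for Hrc, 0.055 for Jph1, 0.046 for Cacnb2 and 0.063 for Trdn. Myl7 thus differed between these libraries far more than these 4 genes did.

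The genes whose profile over the 6 libraries was most like that of Cacng1 and Cacnb2, the extremes of the 10, were found by the root mean square difference of centred log2 CPM. For Cacng1 these were Myoz3, a Z-disc protein of fast fibres (0.36), Myh2, a fast myosin heavy chain (0.41), and Mettl21c, a methyltransferase (0.42). For Cacnb2 they were Gm9899 (0.074), Armc2 (0.21) and Myocd, the cardiac and smooth muscle coactivator myocardin (0.21). With 2 tissues, such likeness is mostly the size of the difference between them.

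The other genes of excitation-contraction coupling, a list of 49 of which 47 were tested, were split between the tissues. Of the 47, 23 were higher in quadriceps, 17 were lower and 7 did not pass the test, which compares with 32.1% and 33.9% of all gene names, and the median log2 fold change was 0.38. At a log2 fold change beyond 2 and an unadjusted p under 0.05, 15 were higher and 11 lower, against 7.14% and 9.04% of all gene names. With library totals 18 of the 23 stayed higher, the other 5 (Cacnb4, Cav3, Mtm1, Speg and Srl) lost their call, all 17 stayed lower and 3 more were called lower, against 13.6% and 62.0% of all gene names. The median then was -0.36.

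In each of the 4 other paralog pairs compared, the form with the higher level per length changed between the tissues, as for Cacnb1 and Cacnb2. Ryr1, the skeletal release channel, had 66.5, 78.6 and 80.7 RPKM in quadriceps and at most 0.0205 in heart, whereas Ryr2, the cardiac one, had 88.0, 83.9 and 75.3 in heart and 4, 0 and 2 counts in quadriceps. Among the pumps that refill the store, Atp2a1 had a log2 fold change of 14.44 (SE 0.47; 15.23 without heart library 1) and Atp2a2 of -5.54 (SE 0.18). The Atp2a2 value is that of its transcript with the highest count, which carries a RefSeq label for non-coding RNA. Summed over all transcripts of each gene, the log2 ratio of Atp2a1 to Atp2a2 differed by 20.23 between the tissues. The log2 fold change of Ryr2 was -13.51, and -14.30 and -12.92 without quadriceps libraries 1 and 2. The pore-forming subunits Cacna1s and Cacna1c had 5.78 and -6.31, and the calsequestrins Casq1 and Casq2, which store calcium in the lumen, 4.70 and -4.23. Casq1 was not near absent from heart, with 46.0, 92.0 and 74.5 RPKM in libraries 1, 2 and 3. These were 0.113, 0.256 and 0.195 of the level of Casq2. For Casq1 against Casq2 the log2 ratio differed by 9.02 between the tissues and for Cacna1s against Cacna1c by 12.07, against 11.71 for Cacnb1 and Cacnb2 and 3.41 for Jph1 and Jph2. The differences were larger for Ryr1 against Ryr2 (26.72) and Atp2a1 against Atp2a2 (20.16), which rest on a few counts of Ryr2 in quadriceps and of Ryr1 and Atp2a1 in heart. All 10 ratios computed had the smallest exact p of 0.1, which adjustment over the 10 leaves at 0.1.

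The largest differences on the quadriceps side of the list, past those above, were in Cacng6, a further gamma subunit (10.60), Slc8a3, a sodium-calcium exchanger (9.27), and Sypl2 or mitsugumin 29, a protein of the triad (8.88). On the heart side they were Pln, the pump inhibitor phospholamban (-10.50), and Rrad, a small GTPase that restrains the L-type channel (-4.93). Rrad had 33, 27 and 162 counts in quadriceps, and without library 3 its value was -6.51. Fitted values against a tissue with a few counts, as for Cacng6 with 1, 2 and 2 counts in heart, depend on the prior count. By role, with 32.1% of all gene names higher and 33.9% lower as the background, 5 of 11 voltage sensor genes were higher and 4 lower, 3 and 3 of 8 release channel genes, 4 and 2 of 6 store genes, 2 and 2 of 5 pump genes, 5 and 2 of 8 membrane couplers, 3 and 1 of 4 genes of store entry and exchange, and 1 and 3 of 5 channel regulators. Of the 5 couplers, Bin1, which shapes the tubules, was at 6.62, and Cav3, Mtm1 and Speg lost the call with library totals. Sln, which inhibits the pump in atria and slow fibres, had 838, 48 and 2 counts in heart libraries 1, 2 and 3 and did not pass the test.

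**Figure D5:**
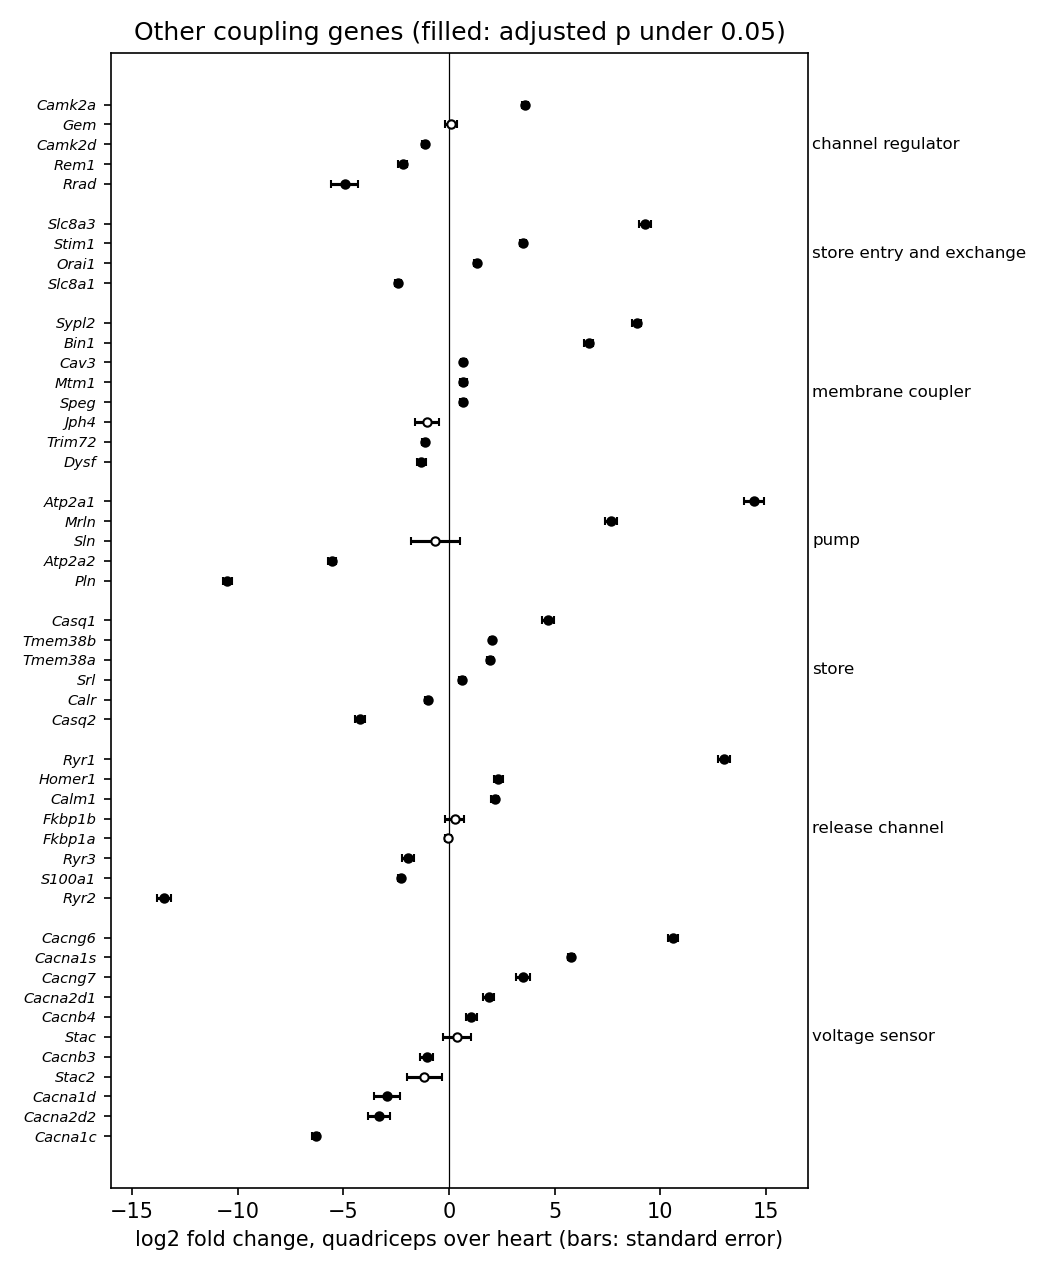
TMM log2 fold change of quadriceps over heart for the 47 tested genes of the coupling list, grouped by role, with bars for the standard error and filled points for an adjusted p under 0.05. Points reach from -13.51 for Ryr2 to 14.44 for Atp2a1, and 23 filled points lie on the quadriceps side and 17 on the heart side.

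For TAC quadriceps the deposited table covers 587 genes chosen as secreted proteins. None of the 10 genes is among them, and their response to TAC was not analysed here. Of the other coupling genes the table lists Calr, the calcium-binding chaperone calreticulin, with 3911, 3372 and 6110 counts in TAC and 2246, 2486 and 1805 in sham quadriceps. Every TAC library was above every sham library in these counts and in counts relative to the listed genes. The log2 fold change was 0.95 (SE 0.28, adjusted p = 0.0337, edgeR's quasi-likelihood test, where 29.7% of the 586 tested genes were called), with counts scaled over the listed genes. Scaled by library totals, which could be had for 5 of the 6 libraries, the difference was 0.017 (adjusted p = 0.948). The TAC library left out there, whose number in the table matches no label, had the highest count, and without it the TMM value was 0.56 (adjusted p = 0.0965). Of the 6 fits that left out 1 library, the call was kept only in that without TAC library 2.

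Several of the genes overlap others in the annotation (GENCODE vM21). A gene on the opposite strand lies over part of Jph1, Cacnb1 and Asph, among them the protein-coding Clvs1 at Asph. Pseudogenes, unclassified transcripts and antisense genes overlap Trdn and Cacnb2, some on the same strand and some on the opposite strand. Whether the counting used strand is not given in the sources used here, so reads of such pairs cannot be told apart. No gene overlaps Jph2, Hrc, Jsrp1, Cacng1 or Stac3.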

How the data were processed

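RNA sequencing of 3 sham heart, 3 sham quadriceps and 3 TAC quadriceps libraries was used. Per the paper's methods and the submitters' processing notes, the authors used Trim Galore for trimming, STAR for alignment (mm10) and Rsubread for counting. They deposited raw counts for each RefSeq transcript, and the deposited RPKM values are these counts over length and library total. Versions are not given in the sources used here. Their fold changes and p-values were not used, nor was 1 RPKM column of a TAC library whose number matches no label; its counts were used as an unnumbered replicate. The heart and quadriceps comparison was fitted in R 4.3.3 with edgeR 4.0.16 (quasi-likelihood test, TMM, Benjamini-Hochberg adjustment) on the 24280 transcripts that exceeded 5 counts in 2 or more of the 6 libraries, and called at an adjusted p of 0.05. Exact permutation tests on 3 against 3 libraries cannot go below p = 0.1. Ratios within libraries added 0.5 counts before division by length.

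The 10 genes, the lists and the tests were chosen with earlier results of these data known. All members are named by every listed transcript, with the 5 largest rises and falls of the coupling list and its paralogs; other genes of that list were named after their values were seen, as were the markers. The procedure was tested on simulated data. Replicate pairs differed by more than sampling noise (chi-square over degrees of freedom 7.41 or more). Alternatives were DESeq2 1.42.0, limma 3.58.1 on log2 RPKM with pseudocounts of 0.5, 1 and 0.1, other scalings and filters, the replicate number as a block and leaving out each library. Coordinates are from GENCODE vM21 (GRCm38) and promoters from RefSeq. Low counts limit precision for Jsrp1, Stac3, Cacng1 and Cacnb2 in the tissue where each is low.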

Additional observations from a re-analysis of the deposited data

How the results depend on the processing

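With library totals, 3241 of all transcripts were higher in quadriceps and 15203 lower, and with limma on log2 RPKM at pseudocounts of 0.5, 1 and 0.1 there were 3201, 3194 and 3218 higher and 15319, 15322 and 15365 lower, against 7828 and 8354 with TMM. Under each of these 4 settings, 10 of the 28 member transcripts were higher (16 with TMM), as were 5 of the 10 genes (8 with TMM), and 2 genes were lower (1 with TMM). The 5-exon Asph transcript NM_001177856 turned from 0.67 to -0.075 with library totals and to -0.081, -0.079 and -0.084 with limma at the same pseudocounts. At a log2 fold change beyond 2 with an unadjusted p under 0.05, 1699 of all transcripts were higher and 2097 lower, of the 28 member transcripts 10 and 3, of the 10 genes 5 higher, and of the other coupling genes 15 and 11. With at least 10 counts in every library, Cacnb2, Cacng1 and Jsrp1 were not tested, which left 0 genes lower. Over the 10 transcripts of highest count, 158 of the alternative values kept their direction and call, 15 lost the call and 4 gained it. Testing 1 transcript per gene gives no count of transcripts.

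Heart and quadriceps libraries of the same number did not deviate together (r = 0.055, -0.053 and 0.035), and the numbers were not taken as pairs. These correlations between different tissues cannot show whether such libraries share a mouse. With the replicate block, 16 of the 28 member transcripts were higher and 8 lower, the same counts as without it. Of all 24280 transcripts tested, 7541 were then higher and 8175 lower. For Calr in TAC, the block on the libraries numbered 1 and 2 gave 0.72 (adjusted p = 0.234), library totals of 5 libraries gave 0.017 (adjusted p = 0.948), limma on the RPKM of the same 5 gave 0.014 (adjusted p = 0.956), and leaving out each library gave 0.56 to 1.12. The cause of the lost calls was not tested.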
